A study of Homo sapiens with 4 samples.

Results

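The RNAs described here are 9 well-known long non-coding RNAs: MALAT1, NEAT1, KCNQ1OT1, LINC00657, DGCR5, MEG3, H19, GAS5 and SNHG1. They were found by gene symbol in the authors' deposited table, where each symbol had 1 row among 34675 genes. The set was chosen by folds and adjusted p-values of this same comparison, beside how well known the RNAs are, so these values are given as a description and support nothing. RNA came from MDA-MB-231, an established triple-negative breast carcinoma line that was first grown from a pleural effusion and has mesenchymal features. The vector line carried the pcDNA-Vector plasmid and the LKB1 line carried pcDNA-FLAG-LKB1 wildtype, which encodes FLAG-tagged LKB1, the kinase made by STK11. Both were stable lines kept in DMEM with 10% FBS on plastic, and 2 stranded whole-transcriptome libraries of total RNA were made from each. How many clones a line held, and whether its libraries came from separate cultures, is not said in the labels, so the p-values measure only library-to-library spread, which may be technical.

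A sample mix-up check found that 1 of the 2 groups did not match MDA-MB-231, which bears on all differences that follow. LKB1 library titles contain fmRNA and vector titles contain mRNA, with no meaning given, so preparation and group cannot be told apart. The deposited table holds 1 comparison and no value per library, so no result could be given without a library. Read totals, recovered from the fold column, add the 2 libraries of each line, and the LKB1 line was sequenced to 1.04 times the depth of the vector line. STK11 had 1321 reads in the vector libraries and 2112 in those with LKB1, a 1.54-fold difference in the authors' deposited table (adjusted p = 0.00105, log2 0.62). The table does not name its direction, taken here as LKB1 over vector because STK11 was above 1, so the direction of STK11 is not independent evidence. Among cell type markers, the mesenchymal VIM had over 13529 reads in the vector line. The endothelial genes CDH5 and VWF had 121 and 203 reads in the vector line and 18 and 25 in the LKB1 line, and both were lower in the authors' deposited table (adjusted p = 2.49e-09 and 2.85e-16). PECAM1, also listed, was not analysed here. Of the luminal epithelial markers, EPCAM had 152 and 209 reads (vector first), CDH1 431 and 278, ERBB2 1104 and 1364, ESR1 8 and 12, and PGR 4 and 0, and none of them was called. PTPRC of leukocytes and ALB and APOA1 of liver had at most 10 reads in a line, and the part of any other cells in the results below was not tested.

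Long non-coding RNAs act as RNA rather than through a protein. MALAT1 and NEAT1 stay in the nucleus, where MALAT1 gathers at the nuclear speckles that store splicing factors and NEAT1 is the scaffold of the neighbouring paraspeckles. KCNQ1OT1, H19 and MEG3 are imprinted, meaning that only the copy from a given parent is transcribed, and each belongs to a cluster of imprinted growth genes. GAS5 and SNHG1 are host genes: their introns are processed into box C/D small nucleolar RNAs (snoRNAs), which guide methylation of ribosomal RNA, while the spliced host transcript is unstable. LINC00657, also called NORAD, binds Pumilio proteins in the cytoplasm, and DGCR5 lies in the DiGeorge syndrome region of chromosome 22.

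Sequence features of some of these RNAs, and of snoRNAs from the introns of SNHG1, are shown first, since the results follow their classes. MALAT1 and long NEAT1 lack a poly(A) tail and end instead in a structure in which an A-rich tract folds into a U-rich stem, which protects the 3′ end. The 3′ parts of their GENCODE 29 transcripts are printed with capitals for AAAAGCAAAA, the last 10 bases of NEAT1, and for its reverse complement TTTTGCTTTT, both as found on the sense strand.
MALAT1 (bases 8258 to 8365 of 8708): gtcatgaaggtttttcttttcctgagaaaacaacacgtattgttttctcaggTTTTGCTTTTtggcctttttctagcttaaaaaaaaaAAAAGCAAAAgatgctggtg
NEAT1 (bases 22641 to 22743 of 22743): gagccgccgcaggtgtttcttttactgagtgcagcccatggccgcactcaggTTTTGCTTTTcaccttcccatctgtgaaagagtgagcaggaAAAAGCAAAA
TTTTGCTTTT started 36 bases before AAAAGCAAAA in MALAT1 and 41 bases before it in NEAT1. The pair, with starts less than 60 bases apart, was found in 2 of 55772 lncRNA transcripts (0.00359%), which are those shown. Since AAAAGCAAAA was taken from NEAT1, its match there was fixed in advance. The count is of transcripts, of which a gene can have several. The annotated MALAT1 transcript runs 353 bases beyond AAAAGCAAAA.

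LINC00657 carries repeats of the Pumilio site TGTANATA. The 3 places where a pair of these sites started 9 bases apart are printed from its GENCODE 29 transcript, with the sites in capitals.
LINC00657, bases 1432 to 1468: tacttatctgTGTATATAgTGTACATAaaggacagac
LINC00657, bases 2629 to 2665: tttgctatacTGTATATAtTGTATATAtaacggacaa
LINC00657, bases 3265 to 3301: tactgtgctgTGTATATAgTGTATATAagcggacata
The whole transcript of 5339 bases held 15 such sites on the sense strand, the first at base 761 and the last at base 4599. Among 822 lncRNA transcripts of 4 to 7 kb, 290 (35.3%) held at least 1 site and 3 held 15 or more, counts that include LINC00657 itself.

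Box C/D snoRNAs are named for a C box near the 5′ end and a D box near the 3′ end. From the introns of SNHG1, the snoRNAs with a lower, a middle and a high read total are printed from GENCODE 29, with TGATGA (C) and the last CTGA (D) in capitals.
SNORD25: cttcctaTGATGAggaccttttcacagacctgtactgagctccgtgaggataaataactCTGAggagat
SNORD27: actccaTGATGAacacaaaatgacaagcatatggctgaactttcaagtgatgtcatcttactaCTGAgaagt
SNORD30: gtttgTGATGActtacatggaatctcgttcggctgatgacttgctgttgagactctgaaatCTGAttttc
TGATGA starting within the first 20 bases together with CTGA within the last 20 was found in 188 of 288 SNORD transcripts (65.3%), sense strand.

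In the authors' deposited table, 4 of the 9 lncRNAs had an adjusted p under 0.05, the threshold for a call here: DGCR5, MALAT1, KCNQ1OT1 and LINC00657. All 4 were higher in the LKB1 line. Over all 34675 genes 5.79% were called, 2.55% of them higher and 3.24% lower, where each percentage is of all genes. Of genes with at least 40 reads 12.6% were called (5.77% higher and 6.86% lower), and of the 423 lncRNA genes with at least 200 reads 13% were called. Since the lncRNAs were chosen with this contrast known, nothing is read from the difference between their share and these. Among the 7 lncRNAs with at least 40 reads every log2 fold was above 0 and the median was 0.48, the same as over all 9. Of all lncRNA genes with that many reads 50.5% were above 0, with a median of 0.00. Nothing is read from this difference either, since the folds were known at the choice. NEAT1, GAS5, SNHG1, MEG3 and H19 were not called. The call with the largest adjusted p was LINC00657 (0.0387 in the authors' deposited table), and the nearest value on the other side of the threshold was that of NEAT1 (0.15). Throughout, an SE is that of the log2 fold, worked back from the deposited p with a normal approximation. RNA was taken from whole cultures, so fewer cells with an RNA and less of it per cell cannot be told apart.

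**Figure D1:**
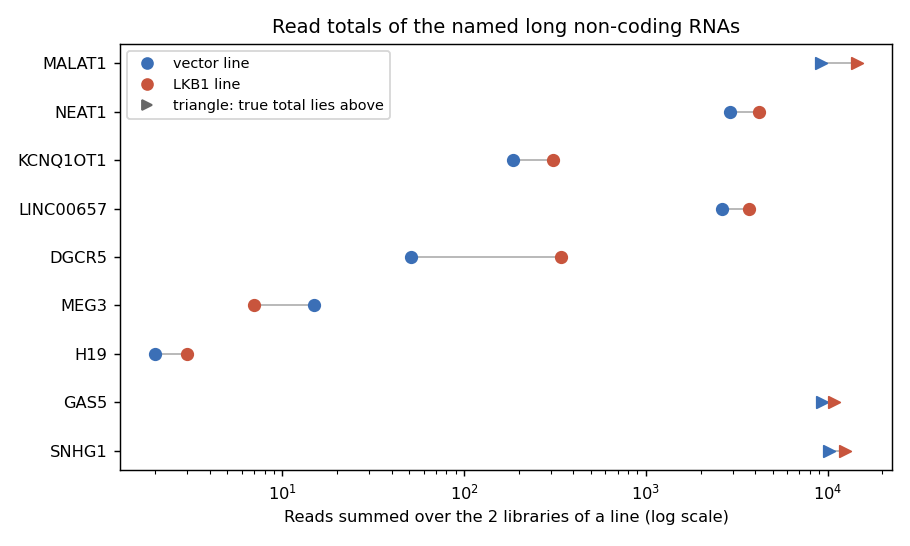
Reads summed over the 2 libraries of a line (log axis) for each lncRNA, with the vector line in blue and the LKB1 line in red; triangles are totals known only as lower bounds. The totals run from 2 and 3 reads for H19 to over 14580 in the LKB1 line for MALAT1, and DGCR5 shows the widest gap, from 51 to 340.

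The levels of these RNAs spanned several orders of magnitude. Per kilobase of GENCODE 29 exon in the vector line, SNHG1 had over 2720 reads, GAS5 over 2560 and MALAT1 over 1040, and these lower bounds give no order among the 3. LINC00657 followed with 489 reads per kb and NEAT1 with 127. H19 had 0.69 reads per kb and MEG3 had 0.646, which are 2 and 15 reads in all, so their order is not resolved. No value per kb is given for KCNQ1OT1, not matched by identifier in GENCODE 29, or for DGCR5, which GENCODE 29 splits. The lengths join the exons of all GENCODE 29 transcripts of a gene and can differ from the model behind the reads. For MALAT1 the length was 8829 bases, where the deposited row spans 8708. The values per kb are therefore approximate. Reads of intronic snoRNAs on the same strand may be part of the totals of GAS5 and SNHG1, since how overlapping reads were counted is not given in the sources used here.

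Of the nuclear RNAs, MALAT1 was called and its neighbour NEAT1 was not. MALAT1 (ENSG00000251562.3) is a lincRNA on the plus strand of chromosome 11, 65265233 to 65273940 in hg19. It had over 9152 reads in the vector libraries and over 14580 in those with LKB1, totals too large to be resolved exactly. The difference in the authors' deposited table was 1.53-fold (log2 0.62 ± 0.15 SE, 95% interval 0.33 to 0.91, adjusted p = 0.00118). Among lncRNA genes with at least 200 reads, 8.04% had a log2 fold as high or higher.

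NEAT1 (ENSG00000245532.2) starts upstream of MALAT1 on the same strand, at 65190245 to 65213011. It had 2892 reads in the vector libraries and 4180 in those with LKB1, totals that do not tell long NEAT1 from other transcripts of the gene. The authors' deposited table gives a 1.39-fold difference (log2 0.48 ± 0.19 SE, 95% interval 0.10 to 0.85) that did not pass the adjusted threshold (adjusted p = 0.15). The interval of NEAT1 overlapped that of MALAT1 over most of its width, and the difference between the log2 folds of the pair was not tested. Of the lncRNA genes with at least 200 reads, 11.3% had a log2 fold at or above that of NEAT1. MIR612, a microRNA gene inside NEAT1, had 2 reads in each line.

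Most genes around this pair had smaller log2 folds. Nearby genes with at least 40 reads were FRMD8, 9.25 kb to the left of NEAT1, and AP000769.1 between the pair. FRMD8 had 560 and 552 reads (log2 -0.08 in the authors' deposited table). AP000769.1 had 49 and 64 reads, log2 0.33 in the authors' deposited table, and neither was called. Of 45 genes with at least 40 reads that lay within 500 kb of MALAT1, 4 were called, all higher, with a median log2 fold of 0.14, where 12.6% of all genes with that many reads were called. Those 4 were CAPN1, a calcium-activated protease, AP5B1, the pseudogene AP001266.1 and DRAP1, a transcriptional corepressor. DRAP1 had 1968 reads in the vector libraries and 3095 in those with LKB1 (log2 0.60, adjusted p = 0.00104 in the authors' deposited table). AP5B1 and AP001266.1 lie beside each other and could share reads. Here and below, counts of genes within 500 kb leave out rows that overlap the lncRNA, and the 9 lncRNAs themselves. Only the nearest edge of a gene had to lie within 500 kb. In the list of 18 neighbours of NEAT1 and MALAT1 at 11q13, 16 had at least 40 reads and 0 were called, with 1 at an unadjusted p under 0.05. SIPA1, a GTPase activator, had the smallest p of them, with 1480 and 1162 reads (log2 -0.41, adjusted p = 0.125 in the authors' deposited table).

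Genes for proteins that work with these nuclear RNAs were counted next, beside the 12.6% called among all genes with at least 40 reads. Among 18 paraspeckle proteins, which include NONO and SFPQ, 1 was called, and it was lower. That gene was SMARCA4, the ATPase of the SWI/SNF chromatin remodelling complex, with 5363 reads in the vector libraries and 3975 in those with LKB1 (log2 -0.49, adjusted p = 0.0127 in the authors' deposited table). Over the 18 the median log2 fold was -0.11. Of the others, HNRNPH3 had 2342 and 1995 reads, PSPC1 833 and 714, and ZNF24 935 and 835, and their adjusted p-values in the authors' deposited table were 0.559, 0.574 and 0.842. Among 16 nuclear speckle proteins and partners of MALAT1, 0 were called, 1 had an unadjusted p under 0.05 and the median log2 fold was -0.04. The smallest p there was that of PNN, a speckle protein of the exon junction complex, with 1073 and 849 reads (log2 -0.39, adjusted p = 0.249 in the authors' deposited table). METTL16, which binds the 3′ end of MALAT1, had 442 and 382 reads (log2 -0.27, adjusted p = 0.75 in the authors' deposited table). U2AF2 and SRSF2, which are splicing factors, each had a log2 fold of -0.26 in the authors' deposited table, with adjusted p of 0.452 and 0.467.

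**Figure D2:**
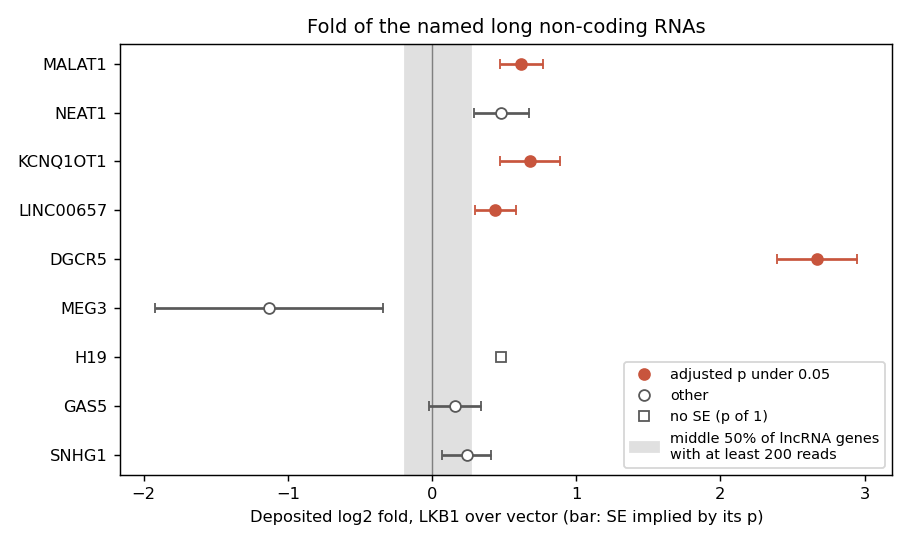
Deposited log2 fold, LKB1 over vector, of each lncRNA, with bars for the SE implied by its p; filled red points had an adjusted p under 0.05, the open square has no SE, and the grey band spans the middle 50% of 423 lncRNA genes with at least 200 reads (-0.19 to 0.27). DGCR5 lies at 2.67, MALAT1, NEAT1, KCNQ1OT1 and LINC00657 lie between 0.44 and 0.68, and GAS5 and SNHG1 lie inside the band.

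Of the imprinted RNAs, KCNQ1OT1 was called, and MEG3 and H19 were close to undetected. KCNQ1OT1 (ENSG00000258492.1) silences neighbouring genes in cis on the paternal chromosome and is transcribed antisense to KCNQ1, a potassium channel gene. Its row spans chromosome 11, 2696556 to 2721224, on the minus strand. It had 186 reads in the vector libraries and 309 in those with LKB1. That is a 1.6-fold difference in the authors' deposited table (log2 0.68 ± 0.21 SE, 95% interval 0.27 to 1.08, adjusted p = 0.0225). This row covers 24669 bases within KCNQ1, and KCNQ1 itself had 8 and 26 reads (log2 1.61, adjusted p = 0.21 in the authors' deposited table). Whether strand was used in counting is not given in the sources used here, so if it was not, reads of the antisense pair cannot be told apart.

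The 11p15 cluster that holds KCNQ1OT1 and H19 was the list with the most calls among those of imprinted genes. Of 18 listed genes 17 were in the table and 7 had at least 40 reads, of which 2 were called higher and 1 lower, with a median log2 fold of 0.26, where 12.6% of all genes with that many reads were called. CDKN1C, a maternally expressed inhibitor of cyclin-dependent kinases, had 37 reads in the vector libraries and 144 in those with LKB1. That is a 3.73-fold difference in the authors' deposited table (adjusted p = 3.74e-07, log2 1.90). OSBPL5, an oxysterol-binding protein, had 191 and 301 reads (log2 0.60, adjusted p = 0.0462 in the authors' deposited table). PHLDA2, a maternally expressed growth restrictor, went the other way, with 1234 reads in the vector libraries and 808 in those with LKB1 (log2 -0.67, adjusted p = 0.00144 in the authors' deposited table). Thus the called genes near KCNQ1OT1 did not share a direction. TSSC4, the nearest gene on its left with at least 40 reads, had 361 and 313 reads (log2 -0.26 in the authors' deposited table) and was not called. The tetraspanin gene CD81 and the histone chaperone gene NAP1L4 had log2 folds of 0.26 and 0.25 in the authors' deposited table and were not called. SNORA54, a snoRNA within 500 kb, was higher, with 573 and 1022 reads (log2 0.78, adjusted p = 0.00178 in the authors' deposited table).

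H19 (ENSG00000130600.9; chromosome 11, 2016406 to 2022700, minus strand), a fetal RNA that is expressed from the maternal copy and is the precursor of miR-675, had 2 reads in the vector libraries and 3 in those with LKB1. The ratio of reads, corrected for depth, was 1.44 with an exact 95% interval of 0.165 to 17.3, which covers counting error only. A difference in H19 was therefore not detectable at this depth. MIR675 had 0 reads in both lines, and IGF2, its paternally expressed neighbour, had 12 and 3 (adjusted p = 0.342 in the authors' deposited table). To the left, the nearest gene with at least 40 reads was MRPL23, a mitochondrial ribosomal protein gene, with 336 and 365 reads (log2 0.06 in the authors' deposited table). Within 500 kb of H19, 4 of 9 genes with at least 40 reads were called, all higher, where 12.6% of all such genes were called. They lie together about the CTSD gene, which encodes the lysosomal protease cathepsin D and had 2150 reads in the vector libraries and 5089 in those with LKB1 (log2 1.19, adjusted p = 1.93e-15 in the authors' deposited table). IFITM10, RP11-295K3.1 and AC068580.5 were the others, and rows that overlap may count the same reads. AC068580.5, with 19 and 61 reads, reached 40 only through the LKB1 reads. For this row, passing that minimum and being higher are not separate facts.

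MEG3 (ENSG00000214548.8; chromosome 14, 101245747 to 101327368, plus strand), an RNA of the maternal chromosome that is often silenced in tumours, had 15 reads in the vector libraries and 7 in those with LKB1. It was the only 1 of the 9 with a log2 fold below 0 (-1.13 ± 0.79 SE, 95% interval -2.67 to 0.41, adjusted p = 0.76 in the authors' deposited table). Corrected for depth, the ratio of reads was 0.449 with an exact 95% interval of 0.155 to 1.17, so no difference was detectable at this depth. MIR770, a microRNA gene within MEG3, had 0 reads in both lines.

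Further along the same imprinted domain of 14q32, 2 rows with at least 40 reads in total were higher in the LKB1 line. Both reached that total only through the LKB1 reads, so passing it and being higher are not separate facts. They were the 2 called among 7 genes with at least 40 reads within 500 kb of MEG3, where 12.6% of all such genes were called. MIR127, 21.9 kb from MEG3 at 101349316 to 101349412, had 0 reads in the vector libraries and 46 in those with LKB1 (adjusted p = 6.79e-08 in the authors' deposited table). Against a floor of 3 reads over the vector group, it was at least 14.7-fold higher by its read total, and the exact 95% interval of the depth-corrected ratio, which also takes in the counting error of the LKB1 reads, began at 11.5. AL132709.8, a lincRNA row at 101426846 to 101452987, had 11 and 64 reads (5.5-fold, adjusted p = 7.07e-07, log2 2.46 in the authors' deposited table). AL132709.8 was chosen for mention after its values were seen, as were the other called genes of the 500-kb windows. MEG8, which lies between them, had 9 and 8 reads, DLK1 had 2 and 0, BEGAIN 1 and 3, MIR654 0 and 3 and MIR493 0 and 2. Of the domain's 13 listed genes in the table, MIR127 alone had at least 40 reads, all of them in the LKB1 line, so its call says nothing about the list. The mature products of MIR127 in RefSeq (GRCh38.p14) are printed with the seed, bases 2 to 8, in capitals, because this was the microRNA gene in the domain whose reads separated the lines.
hsa-miR-127-5p: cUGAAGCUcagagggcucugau
hsa-miR-127-3p: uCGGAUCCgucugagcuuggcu
The 2 arms do not share a seed, and reads counted over the gene do not tell them apart or from the hairpin. Nor do these whole-transcriptome reads tell them from a longer transcript that crosses the gene. If strand was not used in counting, that transcript could lie on either strand. Whether mature miR-127 differed was not tested.

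Imprinted growth genes on other chromosomes were compared as well. Of 15 listed, 7 had at least 40 reads, 1 was called and it was lower, with a median log2 fold of 0.00, where 12.6% of all genes with that many reads were called. This was PEG10, a retrotransposon-derived gene expressed from the paternal copy, with 3071 reads in the vector libraries and 2305 in those with LKB1 (log2 -0.47, adjusted p = 0.0354 in the authors' deposited table). GRB10, an adaptor that restrains insulin receptor signalling, had 1141 and 1611 reads (log2 0.44, adjusted p = 0.0603 in the authors' deposited table). IGF2R, the receptor that clears IGF2, had 5348 and 7113 reads (log2 0.36, adjusted p = 0.13 in the authors' deposited table). NAP1L5 and GNAS had log2 folds of -0.52 and -0.17 in the authors' deposited table and were not called.

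LINC00657, the RNA with the repeated Pumilio sites printed above, was higher in the LKB1 line. It is ENSG00000260032.1 on the minus strand of chromosome 20, 34633544 to 34638882. It had 2610 reads in the vector libraries and 3685 in those with LKB1, a 1.36-fold difference in the authors' deposited table (log2 0.44 ± 0.14 SE, 95% interval 0.16 to 0.72, adjusted p = 0.0387). Of lncRNA genes with at least 200 reads, 12.3% had a log2 fold as high or higher. NEAT1, at 1.39-fold, was not called. The coefficient of variation between libraries that the deposited p implies was 0.128 for NEAT1 and 0.0958 for LINC00657. These values are worked back from the p and not measured, so they do not show that NEAT1 varied more between libraries. Of the 6 listed NORAD partner proteins 0 were called and 0 had an unadjusted p under 0.05, with a median log2 fold of 0.01. As 12.6% of all genes with at least 40 reads were called, 0 calls among 6 genes say little about these partners. PUM2, a Pumilio protein, had 2528 and 3203 reads (log2 0.29, adjusted p = 0.436 in the authors' deposited table). RBMX, SAFB2 and TOP1 had log2 folds of -0.22, -0.18 and 0.15 in the authors' deposited table.

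EPB41L1, the nearest gene to the right of LINC00657 with at least 40 reads, was also higher in the LKB1 line. This membrane skeleton gene, 40.5 kb away on the other strand, had 438 reads in the vector libraries and 985 in those with LKB1 (2.16-fold, adjusted p = 1.55e-09, log2 1.11 in the authors' deposited table). SCAND1, 86.2 kb to the left, had 249 and 246 reads (log2 -0.07 in the authors' deposited table). Of 13 genes with at least 40 reads within 500 kb, EPB41L1 was called and the other 12 were not, where 12.6% of all such genes were called.

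DGCR5 had the highest fold of the 9. DGCR5 (ENSG00000237517.3; chromosome 22, 18958027 to 19018742, plus strand) had 51 reads in the vector libraries and 340 in those with LKB1. In the authors' deposited table it was 6.39-fold higher (log2 2.67 ± 0.28 SE, 95% interval 2.12 to 3.23, adjusted p = 8.81e-19). Of lncRNA genes with at least 200 reads, 0.236% had a log2 fold at or above it, a share that includes DGCR5 itself. The row spans 60716 bases, and GENCODE 29 splits the locus into DGCR5 and DGCR9, so the reads cannot be given to either. DGCR2, an adhesion receptor gene whose row begins 5.05 kb further on and runs the other way, had 1145 and 1826 reads (1.53-fold, adjusted p = 0.00157, log2 0.62 in the authors' deposited table). On the left the nearest gene with at least 40 reads was USP18, 298 kb away, with 21 reads in each line. Of 14 listed neighbours at 22q11, 11 were in the table and 7 had at least 40 reads, of which DGCR2 was called, where 12.6% of all genes with that many reads were called. PRODH, the proline dehydrogenase gene on the left side of DGCR5, had 5 and 20 reads (log2 1.89, adjusted p = 0.137 in the authors' deposited table). SLC25A1, the mitochondrial citrate carrier, had 935 and 1168 (log2 0.26, adjusted p = 0.625), DGCR6L had 118 and 163 (log2 0.41, adjusted p = 0.672), and CLTCL1 had 299 and 260 (log2 -0.26, adjusted p = 0.912), all in the authors' deposited table.

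**Figure D3:**
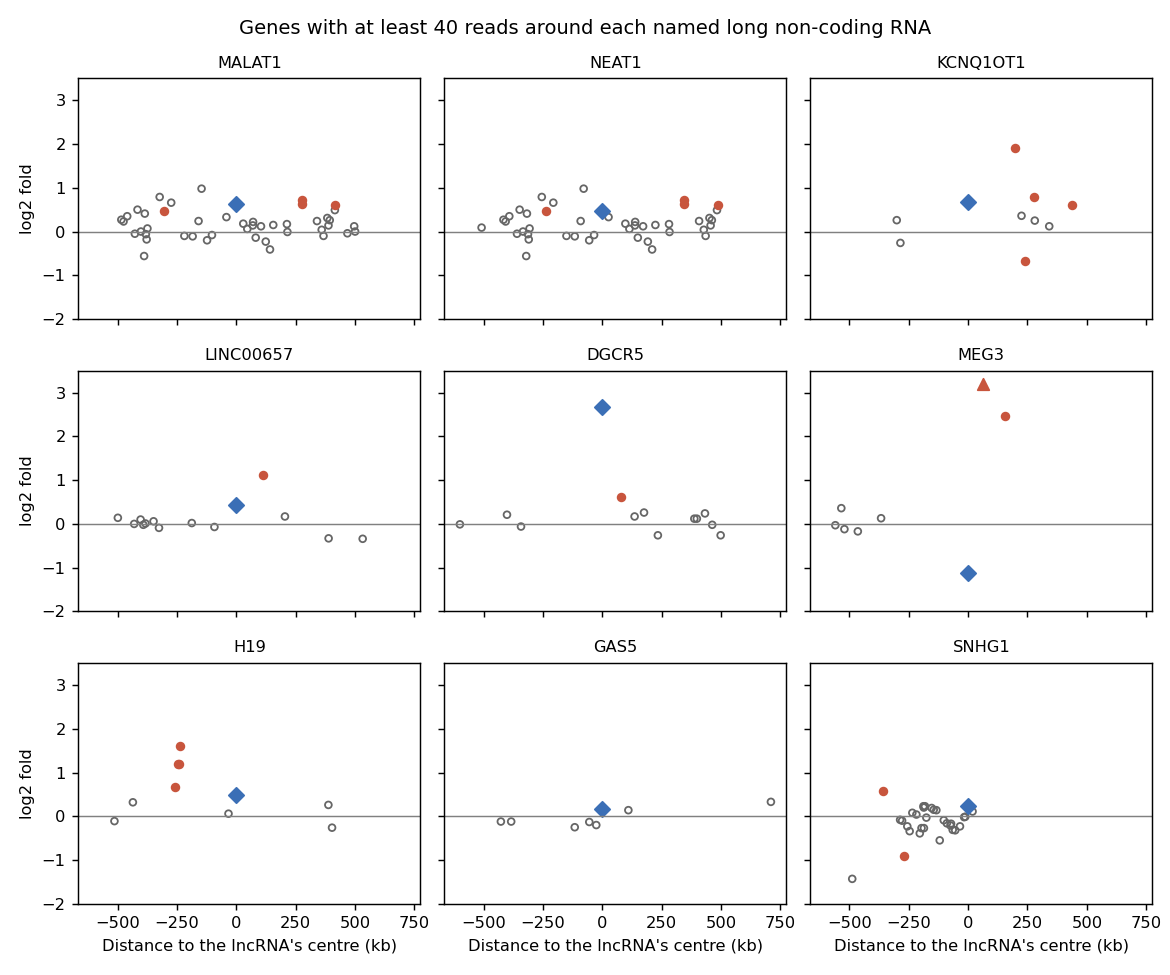
Deposited log2 fold, LKB1 over vector, of genes with at least 40 reads around each lncRNA, plotted by the distance in kb between centres. The nearest edge of each gene lies within 500 kb of the lncRNA. Rows that overlap the lncRNA are left out, as are the other named lncRNAs. Blue diamonds are the lncRNAs and red points had an adjusted p under 0.05. The triangle in the MEG3 panel is MIR127, drawn at the top edge. In the MALAT1 panel 4 of 45 genes are red and in the GAS5 panel 0 of 7 are, where 0 also had an unadjusted p under 0.05. SNORD79, which lies inside GAS5 and was called, is therefore not in the GAS5 panel. Of all genes with at least 40 reads 12.6% were called.

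Neither of the snoRNA hosts, GAS5 and SNHG1, was called. GAS5 (ENSG00000234741.2; chromosome 1, 173833038 to 173838020, minus strand), which accumulates when growth stops, had over 9313 reads in the vector libraries and over 10810 in those with LKB1. Its log2 fold in the authors' deposited table was 0.16 ± 0.18 (SE, 95% interval -0.20 to 0.52, adjusted p = 1). SNHG1 (ENSG00000255717.1; chromosome 11, 62619460 to 62623386, minus strand) had over 10216 and over 12523 reads. Its log2 fold in the authors' deposited table was 0.24 ± 0.17 (SE, 95% interval -0.09 to 0.57, adjusted p = 0.771). Both intervals include 0. Among lncRNA genes with at least 200 reads, 37.4% had a log2 fold at or above that of GAS5 and 27% one at or above that of SNHG1.

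All 8 snoRNAs of the GAS5 introns that were in the table had a log2 fold above 0, with a median of 0.21, and 1 was called. Among all snoRNA genes, of 248 with at least 40 reads 74.6% were above 0, the median was 0.19 and 6.45% were called. The called snoRNA was SNORD79, with 18 reads in the vector libraries and 56 in those with LKB1 (log2 1.57, adjusted p = 0.0186 in the authors' deposited table). It reached 40 reads only through the LKB1 reads, so passing that minimum and being higher are not separate facts. Among the abundant snoRNAs of GAS5, 4 had smaller log2 folds. SNORD81 had 7021 and 8161 reads, SNORD80 4491 and 5021, SNORD76 3837 and 4184, and SNORD74 2088 and 3069. Their log2 folds in the authors' deposited table were 0.16, 0.10, 0.07 and 0.50, and none of these 4 was called. SNORD78 had 1598 and 2072 reads, SNORD47 549 and 682, and SNORD77 19 and 21. Since these snoRNAs are made from introns of 1 host, they are not independent of each other. Their levels in the vector line ran from 18 to 7021 reads although all come from GAS5.

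SNHG1 had 9 snoRNA rows, 2 of them named SNORD22, and 0 were called, while 2 had an unadjusted p under 0.05. Of the 8 rows with at least 40 reads 6 were above 0, with a median log2 fold of 0.27. SNORD30, printed above, had over 9551 reads in the vector line and a log2 fold of 0.09 in the authors' deposited table, and SNORD31 had 9346 and 11569 reads (log2 0.25). SNORD27 had 2282 and 3501 reads, the smallest p of the SNHG1 snoRNAs (log2 0.56, adjusted p = 0.106 in the authors' deposited table). These rows lay on both sides of the host's log2 fold of 0.24. SNORD29 had 484 and 779 reads and, in the authors' deposited table, the highest log2 fold of these rows (0.63, adjusted p = 0.194). SNORD25 had 227 and 220 reads and the lowest log2 fold of the rows with at least 40 reads (-0.10 in the authors' deposited table). SNORD26 had 2485 and 3202 reads and SNORD28 1578 and 2006, and the SNORD22 rows had 662 and 669 (log2 -0.04), and 21 and 12 (log2 -0.85, adjusted p = 0.976 in the authors' deposited table). By name and length, 5 of the SNHG1 rows matched GENCODE 29, where 4 of them lie inside an exon of some SNHG1 transcript, so reads of host and snoRNA cannot be told apart for them. SNORD25 was not among the 5, since its row spans 63 bases and the transcript printed above has 69.

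**Figure D4:**
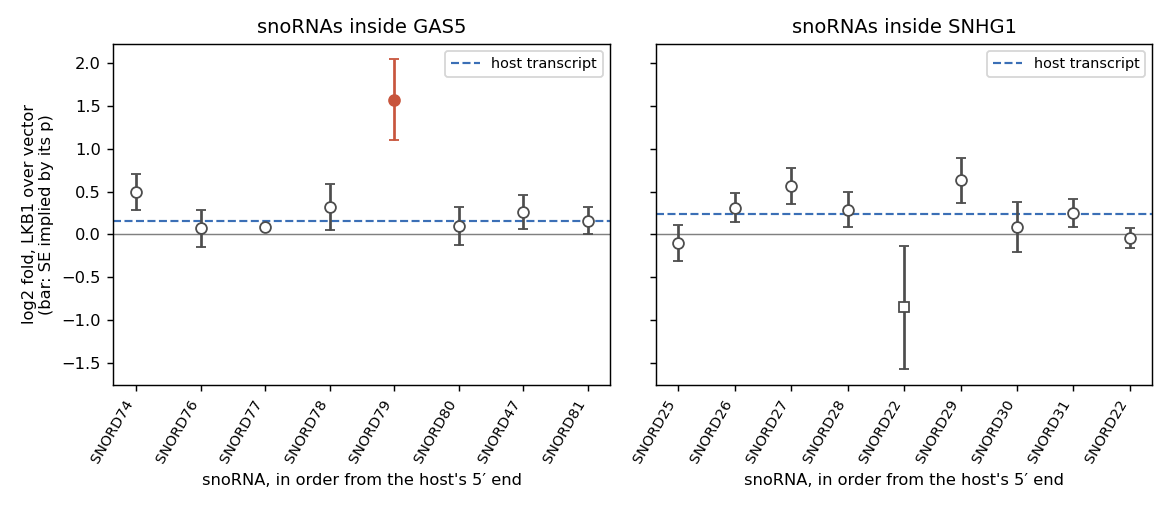
Deposited log2 fold, LKB1 over vector, of each snoRNA row inside GAS5 (left) and SNHG1 (right), in order from the 5′ end of the host, with bars for the SE implied by its p; the dashed line is the host, red is an adjusted p under 0.05, the square is a row with under 40 reads, and SNORD22 has 2 rows. SNORD79 stands at 1.57, and the other rows with at least 40 reads lie between -0.10 and 0.63.

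Genes next to the hosts were described in the same way. ZBTB37, which overlaps the 5′ end of GAS5 on the opposite strand, had 171 and 152 reads (log2 -0.23 in the authors' deposited table), and GAS5-AS1 had 4 and 2. RC3H1, 62.3 kb from GAS5, had 774 and 888 reads (log2 0.14 in the authors' deposited table). SLC3A2, an amino acid transporter subunit that starts 0.132 kb from SNHG1 on the opposite strand, had 1871 and 2099 reads (log2 0.11 in the authors' deposited table). RNU2-2, 10.2 kb from SNHG1, had 3580 and 3688 (log2 -0.01 in the authors' deposited table). None of these genes was called. Within 500 kb of SNHG1, AHNAK was called higher (log2 0.57, adjusted p = 0.00152) and TUT1 lower (log2 -0.90, adjusted p = 0.0225) in the authors' deposited table, out of 30 genes with at least 40 reads, where 12.6% of all such genes were called.

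The other snoRNA host lncRNAs were not called either. Of 23 listed hosts, GAS5 and SNHG1 included, 15 had at least 40 reads. Of these 15, 0 were called, where 12.6% of all genes with that many reads were called. Also, 0 had an unadjusted p under 0.05, and the median log2 fold was 0.11, between -0.45 and 0.31. SNHG16 had 1456 reads in the vector libraries and 1843 in those with LKB1, SNHG10 had 1041 and 1326, and LINC00338 had 779 and 1006. Their log2 folds in the authors' deposited table were 0.28, 0.29 and 0.31. SNHG11 had 83 and 63 reads and a log2 fold of -0.45. Host transcripts of this kind are degraded by nonsense-mediated decay. Of 14 factors of that pathway, all with at least 40 reads, 0 were called, beside the same 12.6%. An unadjusted p under 0.05 was found for 2 of them, and their median log2 fold was -0.08. Nothing is read from 0 calls in lists this short. SMG9, a regulator of the SMG1 kinase, had 715 and 528 reads (log2 -0.49, adjusted p = 0.0601 in the authors' deposited table), and UPF3B had 303 and 216 (log2 -0.54, adjusted p = 0.236). CASC3 and RBM8A, of the exon junction complex, had log2 folds of 0.18 and -0.26 in the authors' deposited table.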

How the data were processed

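Total RNA of 2 vector and 2 LKB1 libraries was compared by the authors. Per the submitters' processing notes CASAVA 1.8.2, TopHat2 2.0.6, edgeR 2.6.0 and build hg19 were used, without their roles. The sources used here do not give the counting, its use of strand, the annotation or filters. Per the file headers, the deposited values per gene are a fold (ratio) with its log2 and a p-value before and after adjustment. Adjusted p-values without an assumed variation are those of the authors' deposited table.

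The members and gene lists were chosen with earlier results of these data known. A fold with a small prior added takes only certain values. Priors of 0.254868 (LKB1) and 0.245132 (vector) reads gave whole totals for 28112 of 28242 genes with reads (99.54%). Of 1413 sampled genes 1408 were resolved, against 150 and 59 with slightly altered priors. Tested on simulated data of this comparison, 3563 of 3565 totals came out right. The 130 unresolved genes are abundant and have lower bounds. Intervals of read ratios (exact, Clopper-Pearson, 95%) and the floor of 3 reads cover counting error only. The variation between libraries was taken back from each deposited p as the coefficient of variation that gives it in an exact negative binomial test (median 0.105 over 10238 genes). The planned edgeR fit needed counts per library and was not run. Named were all 9 lncRNAs, STK11, called members and up to 4 others with the smallest p of each list, all snoRNAs of both hosts and the nearest gene on each side with at least 40 reads. Some genes that this rule names are not reported here. Genes with at least 40 reads over 4 libraries numbered 14387. Python 3.11.15, pandas 2.3.3, scipy 1.17.1 and GENCODE 29 (names, lengths, sequences; 8 of the 9 matched by identifier) were used.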

Additional observations from a re-analysis of the deposited data

How the results depend on the processing

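With an adjusted p under 0.01, 2 of the 9 lncRNAs were called (DGCR5 and MALAT1) and 7 list genes, against 4 and 12 under 0.05. The list genes numbered 151, without the 9 and all with at least 40 reads. Under 0.05, 12.6% of all genes with that many reads were called. Over all 34675 genes 1370 were called under 0.01, against 2007. With a fold of at least 2 required as well, 1 lncRNA (DGCR5), 5 list genes and 1032 of all genes were called, against 2007 of all genes without it. An assumed coefficient of variation of 0.2 between libraries in place of the deposited p gave 1 lncRNA (DGCR5), 5 list genes and 870 genes, and 0.4 gave 1 (DGCR5), 2 and 266. Under 0.2 the adjusted p was 0.548 for MALAT1, 0.56 for KCNQ1OT1 and 4.92e-11 for DGCR5. A variation of 0.1, added after the data were seen, gave 5 lncRNAs, with NEAT1 at 0.0244. Genes with at least 40 reads, adjusted again, gave 4 lncRNAs and 2218 genes. No log2 fold of the 9 changed sign under centring, nor of the 6 with resolved totals under no prior or 5 added reads, where the largest move among NEAT1, KCNQ1OT1, LINC00657 and DGCR5 was 0.10. With 5 reads added to each group, MEG3 was at -0.79 and H19 at 0.14. No paired analysis was possible because the table holds no values per library and the library letters in the labels are not shared between groups. For the former reason leaving out a library was not run, and the run tag that sets 1 LKB1 library apart could not be examined.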

Other observations

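Among 34 other well-known lncRNAs, 29 were in the table and 17 had at least 40 reads, of which 3 were called higher in the LKB1 line and 1 lower, with a median log2 fold of 0.02. Of all genes with that many reads 12.6% were called. UCA1, first described in bladder carcinoma, had 113 reads in the vector libraries and 513 in those with LKB1 (4.36-fold, log2 2.12, adjusted p = 9.1e-18 in the authors' deposited table). LINC00472 had 604 and 1097 reads (log2 0.80, adjusted p = 0.000345), and LINC00511 had 308 and 536 (log2 0.74, adjusted p = 0.0106), both in the authors' deposited table. LINC00261, an endoderm RNA that is transcribed beside FOXA2, was lower, with 244 reads in the vector libraries and 6 in those with LKB1 (40.6-fold lower, log2 -5.34, adjusted p = 1.08e-31 in the authors' deposited table). Its direction was opposite to that of DGCR5. SOX2-OT had 28 and 9 reads, HOTTIP 0 and 7, MIR17HG 31 and 59, and MIR155HG 7 and 1, and none of these was called.

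Small structured RNAs of other classes were listed with the library type in mind, which a fold between the lines cannot check. Here 13 rows carried the 11 listed names, all with at least 40 reads. Of these rows 0 were called, where 12.6% of all genes with that many reads were called. Among them 1 had an unadjusted p under 0.05, and the median log2 fold was 0.09. RN7SL1, an RNA of the signal recognition particle, had over 8574 reads in the vector line and the largest log2 fold of them, 0.43 (adjusted p = 0.235 in the authors' deposited table). RPPH1, the RNA of ribonuclease P, had a log2 fold of 0.21 and SCARNA2 one of -0.19 in the authors' deposited table.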
